A study of Mus musculus with 18 samples.

Results

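The Gse1 to Zfpm1 segment is a stretch of mouse chromosome 8 of 4.43 Mb, at chr8:119910841-124345722 of mm10. It begins inside Usp10, passes Gse1, Irf8, Zfpm1 and Cbfa2t3, and ends with Galnt2. Its members are the rows of both deposited tables of differentially methylated region calls that lie wholly between those positions, 1824 of the 411770 regions of the CD11b+ table and 2332 of the 553467 regions of the CD4+ table. The segment is the span of Gm20388, an annotated gene model that runs across it, and it was chosen because that model held the most hypomethylated regions in both cell types. The counts and the sizes of the methylation differences given below are the same measurements that chose it, so they are a description and carry no test.

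The cells came from the spleens of Dnmt3a+/+ mice (WT) and of mice labelled Dnmt3aR878/+, which carry the R878H allele of Dnmt3a beside a normal copy (R878H/+ below). The study's methods place the allele on a C57BL/6 background and switch it on with a Cre recombinase driven by Vav1, a promoter active in blood-forming cells, so every blood lineage of these mice can carry it. The labels do not say whether the WT mice of these libraries carried the Cre. No treatment is given, and young adults of either sex were used. CD11b+ cells (myeloid) were taken on magnetic columns, and CD4+ cells (helper T cells) were taken after the CD11b+ cells had been removed. Each of the 4 groups has 4 replicate numbers, and the R878H/+ CD11b+ group has 6 entries for its 4 numbers. The titles also carry sample numbers in a lower and a higher series, whose meaning is not stated. All R878H/+ CD4+ entries are in the higher series, and all but 1 of the WT CD4+ entries are in the lower. In CD11b+ cells only the repeated R878H/+ entries are in the higher series. Genotype and series thus cannot be fully told apart. Methylation was read by whole-genome bisulfite sequencing, and each region has 1 mean per genotype, which is the authors' mean. The group means in both tables are sums of whole percents over 4 libraries within a tolerance of 0.05 in all regions with up to 20 cytosines, also in R878H/+ CD11b+ cells. The study gives a nominal sequencing coverage for these libraries, but the tables hold no value per mouse and no read depth per region, so there is no error between mice for any value below and no test between genotypes could be made. The first of the paired means was read as WT from the study's density plots, and every direction rests on that reading.

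DNMT3A adds methyl groups to cytosines that are followed by a guanine (CpG sites) where none were present, and the mutation at this arginine lowers that activity in blood cells, where it is among the common changes of clonal hematopoiesis. CpG sites of most of the genome are highly methylated, while CpG-dense gene starts are mostly unmethylated and enhancers in use are often in between. Several genes of the segment steer blood cell fate. Irf8 encodes the transcription factor of monocyte and dendritic cell commitment, Cbfa2t3 a corepressor of blood stem and progenitor cells, Zfpm1 the partner protein of GATA factors in red cells and megakaryocytes, and Gse1 a protein found in complexes that remove acetyl and methyl marks from histones.

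The sequences of the regions on which the results turn are shown first, from the mm10 reference (GRCm38.p6), plus strand, 5′ to 3′, with each CpG in capitals. The first 5 come from the part that hypomethylated regions of both cell types share. Where that part is longer than 300 bases, only its middle 300 bases were used. Each stretch was then trimmed to its outermost CpGs. These 5 stretches represent the locus with the largest loss summed over both cell types in each of Gse1, Zfpm1, Fbxo31 and Cbfa2t3, and the next locus of Gse1. They are from introns of Gse1 at chr8:120486324-120486406 and chr8:120494935-120495190, of Zfpm1 at chr8:122309231-122309453, of Fbxo31 at chr8:121570328-121570435 and of Cbfa2t3 at chr8:122695472-122695617. The sixth is from the shared part of the hypomethylated region before Irf8, cut in the same way, at chr8:120731838-120732030. The last is a coding stretch of exon 1 of Slc7a5, at chr8:121907069-121907259. It is shown because methylation was higher there in R878H/+ CD11b+ cells, and the choice was made with its values known.
Gse1 intron, first region: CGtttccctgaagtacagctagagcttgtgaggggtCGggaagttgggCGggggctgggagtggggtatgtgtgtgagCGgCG
Gse1 intron, second region: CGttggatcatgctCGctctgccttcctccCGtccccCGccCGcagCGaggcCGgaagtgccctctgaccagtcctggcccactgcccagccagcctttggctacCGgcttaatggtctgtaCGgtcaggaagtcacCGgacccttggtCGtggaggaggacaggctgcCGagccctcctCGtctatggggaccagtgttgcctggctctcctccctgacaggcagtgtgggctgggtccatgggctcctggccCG
Zfpm1 intron: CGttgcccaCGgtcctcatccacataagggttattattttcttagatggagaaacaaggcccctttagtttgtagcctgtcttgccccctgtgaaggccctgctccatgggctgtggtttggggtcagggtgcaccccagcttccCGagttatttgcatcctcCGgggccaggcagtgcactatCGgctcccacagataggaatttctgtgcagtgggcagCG
Fbxo31 intron: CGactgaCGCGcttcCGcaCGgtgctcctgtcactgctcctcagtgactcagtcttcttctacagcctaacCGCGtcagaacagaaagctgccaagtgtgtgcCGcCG
Cbfa2t3 intron: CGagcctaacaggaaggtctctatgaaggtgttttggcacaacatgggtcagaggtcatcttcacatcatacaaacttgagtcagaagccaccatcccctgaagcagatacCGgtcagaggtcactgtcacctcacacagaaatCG
Upstream of Irf8: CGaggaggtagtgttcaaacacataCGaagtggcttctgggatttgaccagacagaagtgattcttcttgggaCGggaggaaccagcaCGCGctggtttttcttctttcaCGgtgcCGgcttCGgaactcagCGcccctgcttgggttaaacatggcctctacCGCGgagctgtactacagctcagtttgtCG
Slc7a5 exon 1: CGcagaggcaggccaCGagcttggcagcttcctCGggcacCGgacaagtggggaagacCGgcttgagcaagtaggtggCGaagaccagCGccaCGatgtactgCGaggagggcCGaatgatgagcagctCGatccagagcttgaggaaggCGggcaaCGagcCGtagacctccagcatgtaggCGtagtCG
The shown stretch of Fbxo31 has 9 CpGs in 108 bases and that of Cbfa2t3 has 3 in 146, so the regions with large losses range from dense to sparse in CpGs.

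Methylation was lower in R878H/+ cells along the whole segment. In CD11b+ cells the listed regions had a median WT methylation of 86.3% (interquartile range over regions, 68.8% to 93%) and a median R878H/+ methylation of 77% (50.7% to 87.6%). The median loss, WT minus R878H/+, was 7.92 percentage points (4.42 to 13.4), and 92.5% of the regions were lower in R878H/+ cells. In CD4+ cells these medians were 88.2% and 78.3%, the median loss was 8.28 points (4.9 to 13.3), and 94.6% of the regions were lower. Over the rest of chromosome 8 the median loss was 6.35 points (CD11b+) and 6.62 points (CD4+). The tables hold regions of at least 10 cytosines, and the column described as CpGs counts cytosines of both strands: in the full lists, 81.9% of the CD11b+ regions and 89.5% of the CD4+ regions list more cytosines than the reference has CpGs.

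A region is called hypomethylated below when it has more than 10 cytosines, a loss above 20 points and a q-value below 0.05, which are the study's criteria for a differentially methylated region. In CD11b+ cells 15 regions of the segment were called, 0.822% of those listed, against 0.576% of all listed regions of the table. In CD4+ cells 27 were called, 1.16% of those listed, against 0.665%. Of the regions with more than 10 cytosines, 1.81% and 2.42% were called, against 1.38% and 1.49% in the whole tables. Since the segment was chosen on these calls, nothing is read from the difference. No region of the segment was called hypermethylated, against 0.0126% of the whole CD11b+ table and 0.000542% of the whole CD4+ table.

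Most large losses were not called. Of the 831 CD11b+ regions with more than 10 cytosines, 102 (12.3%) had lost more than 20 points and 24 more than 30 points. Of the 1118 CD4+ regions of that size, 10.1% had lost more than 20 points and 36 more than 30 points. The largest uncalled loss among them in CD11b+ cells lay in a Gse1 intron (75.3% to 37.2%), and in CD4+ cells it lay in a Piezo1 intron (74.4% to 29.7%). These regions missed the q-value limit alone. At the 20 point limit the called region with the smallest loss was the same Cbfa2t3 intron in both cell types, with 26.2 points in CD11b+ cells and 20.1 points in CD4+ cells. The nearest CD4+ region under the limit was an exon of Galnt2 (92% to 72%).

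**Figure D1:**
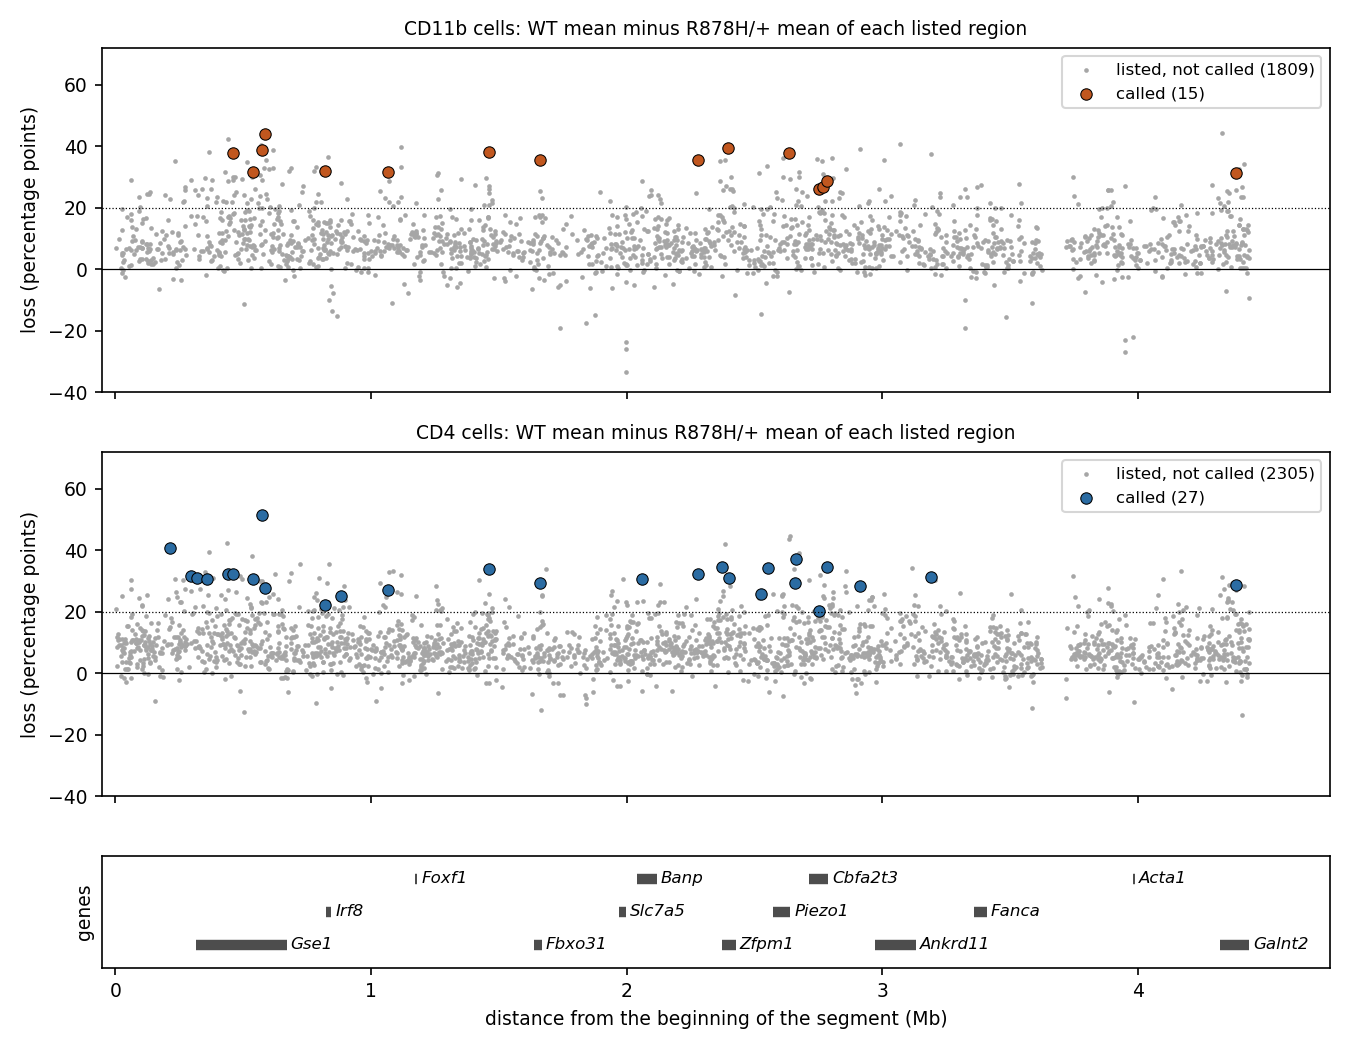
Loss of methylation along the segment. Each point is a listed region, placed by the distance of its centre from the beginning of the segment in Mb (x axis) and by its loss in percentage points (y axis). Grey points were not called, coloured points were called, the dotted line marks 20 points and the lowest panel shows some of the genes. There are 15 called CD11b+ regions and 27 called CD4+ regions, and points below 0 are regions with more methylation in R878H/+ cells.

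The loss was not even along the segment. In bins of 500 kb the median loss of CD11b+ cells was highest in the second bin, which holds the far part of Gse1 and all of Irf8 (9.57 points), and lowest in the fourth, which holds Fbxo31, Jph3 and Slc7a5 (6.81 points). In CD4+ cells it was highest in the first bin, with the beginning of Gse1 (9.8 points), and lowest in the eighth, from Tubb3 to Nup133 (6.45 points). The plot of the loss along the segment shows where the called regions lay. Bins 1 and 2, from 6430548M08Rik through Gse1 to Irf8, held 5 of the CD11b+ calls and 11 of the CD4+ calls. Bins 5 and 6, with Zfpm1, Piezo1 and Cbfa2t3, held 6 and 11. In CD11b+ cells bins 2 and 6 had 4 calls each, of 255 and 251 listed regions. Bin 1 had only 1 of 194 and bin 5 had 2 of 225, beside 0.822% over the segment. In CD4+ cells bins 1 and 2 had 6 of 290 and 5 of 301. Bins 5 and 6 had 4 of 288 and 7 of 302, beside 1.16%. The segment was chosen on these calls, so nothing is read from the differences. From the seventh bin to the end there was 1 call in CD11b+ cells and there were 2 in CD4+ cells. A stretch of 91.8 kb in CD11b+ cells and 91.5 kb in CD4+ cells that begins at the end of Gas8 and runs on after it holds no listed region. As bounded in the CD11b+ table it has 4748 CpGs, and 77.7% of its bases are marked as repeats in the reference, while the usual distance between neighbouring regions was 0.975 kb and 0.685 kb (medians).

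The called regions of both cell types fell into 29 loci, counting regions that overlap as 1 locus. Of these, 13 were called in both cell types, 2 in CD11b+ cells alone and 14 in CD4+ cells alone. A call in 1 cell type alone did not mean that the other cell type had no loss. Each of the 14 loci called in CD4+ cells alone had at least 1 listed CD11b+ region. The largest CD11b+ loss at each ran from 16.4 to 42.3 points with a median of 26.9, and 10 of them were above 20 points. Other CD11b+ regions at some of these loci lost less, such as 8.75 points at the locus after Irf8. At the Piezo1 intron and the Cbfa2t3 promoter, called in CD11b+ cells alone, the largest CD4+ loss was 43.5 and 25.2 points. A second CD4+ region at the Piezo1 intron lost 10.6 points. As a share of each list, 86.7% of the called CD11b+ regions overlapped a called CD4+ region (95% exact binomial interval, for counting error only, 59.5% to 98.3%), and 48.1% of the called CD4+ regions overlapped a called CD11b+ region (28.7% to 68.1%). Both shares rest on an overlap of 1 bp, and with a reciprocal overlap of 50% they were 46.7% and 25.9%. The same shares over the called regions of the whole tables were not computed, so nothing particular to the segment is read from these counts and shares.

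Most called regions had WT methylation below the segment's median. The called CD11b+ regions had a median WT level of 68.9% (lowest 42.7%, highest 92.2%) and a median R878H/+ level of 28.1% (13.9% to 60.2%), with losses of 26.2 to 44.1 points. The called CD4+ regions had a median WT level of 72.8% (41.1% to 96.3%) and a median R878H/+ level of 39.4% (6.56% to 69.6%), with losses of 20.1 to 51.6 points. Over all listed CD11b+ regions of the segment, those with a WT level from 50% to 70% had the highest median loss, 17.6 points, and those at 90% or more lost 5.16 points. In CD4+ cells the corresponding medians were 16.4 and 5.5 points. The whole tables had the same order, with 15.5 and 4.85 points (CD11b+) and 15 and 5.18 points (CD4+). The lowest WT level of a called region was 41.1%.

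At the 13 loci called in both cell types the WT level was higher in CD4+ cells at 10, and the R878H/+ level was higher in CD4+ cells at 11. The median differences, CD4+ minus CD11b+, were 10.1 and 13.1 points. The loss was larger in CD4+ cells at 2 of the 13, with a median difference of -4.3 points. The CD11b+ and CD4+ cells of a replicate number are not tied to 1 mouse in the tables, so these differences have no error either. The called regions of a locus can also differ in borders and length between the cell types, as at Galnt2, so the values compared do not always cover the same bases.

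**Figure D2:**
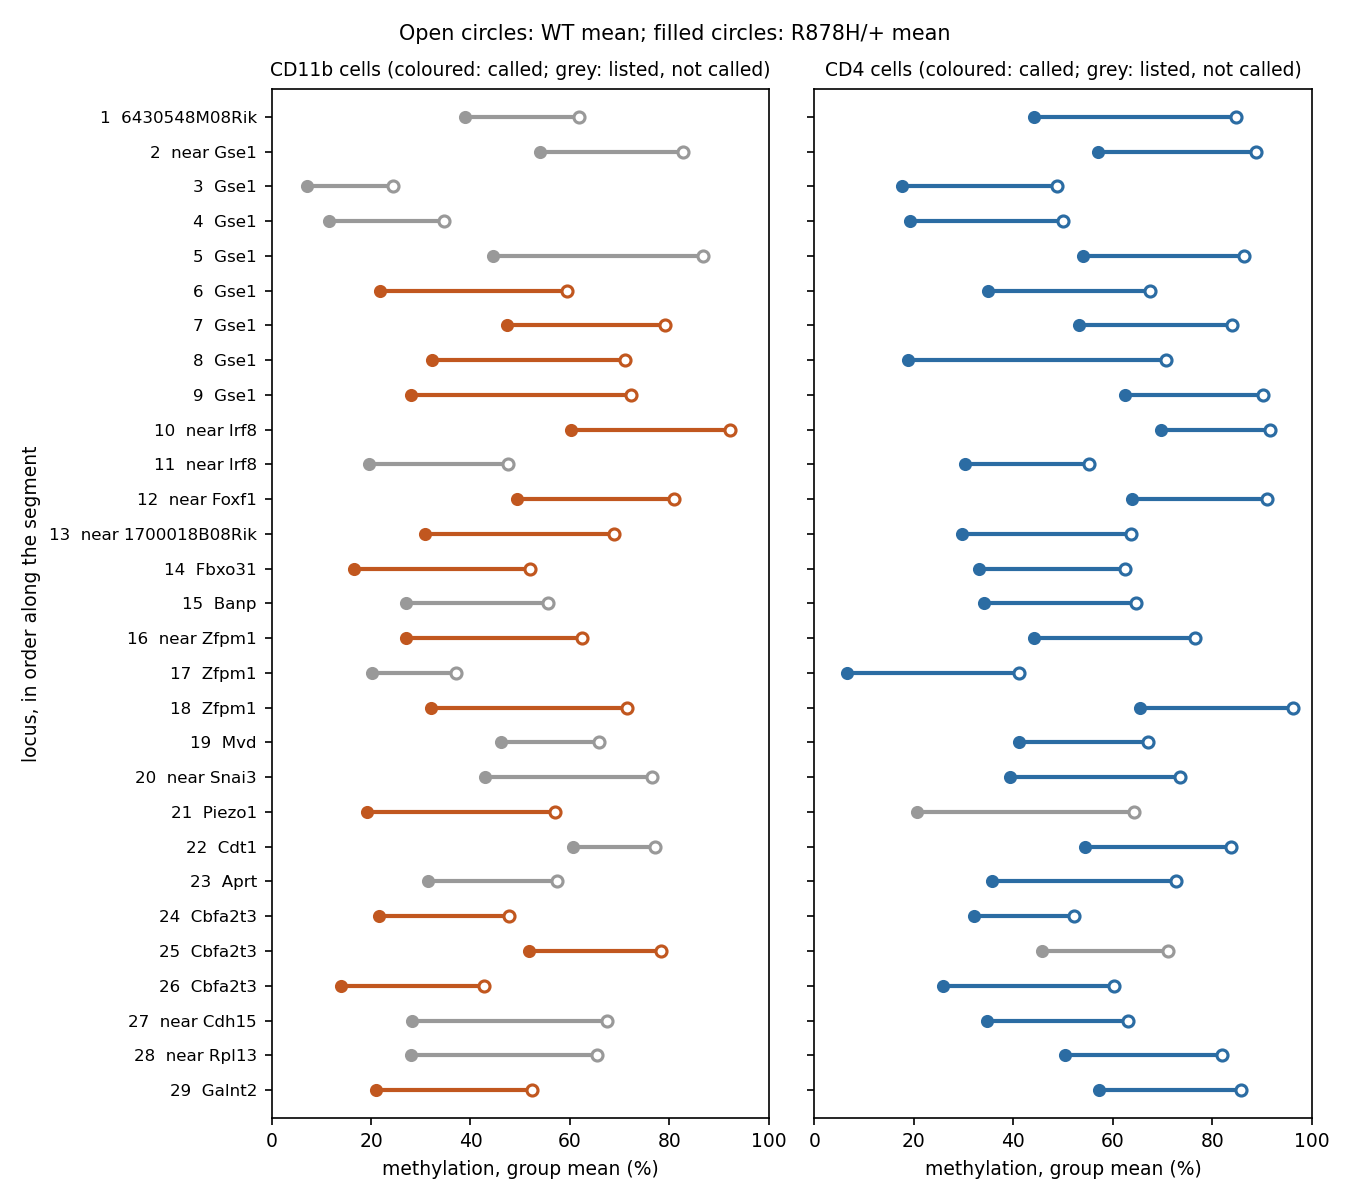
Methylation at the 29 loci that hold a called region, in order along the segment (y axis), in CD11b+ cells (left) and CD4+ cells (right). Open circles are the WT mean and filled circles the R878H/+ mean in percent (x axis), coloured where the region was called and grey where the listed region with the largest loss was not called. All 29 filled circles lie to the left of the open ones in both cell types.

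Gse1, the longest gene of the segment, held 7 of the 29 loci, more than any other gene. It spans 352.9 kb at chr8:120228456-120581390, plus strand, and carries 183 listed CD11b+ regions and 218 listed CD4+ regions. Of these 4 and 7 were called, while over the segment 0.822% and 1.16% of the listed regions were. The segment was chosen on these calls, so nothing is read from the difference. The median loss over the listed regions of Gse1 was 12.1 points in CD11b+ and 10.8 points in CD4+ cells. Of those with more than 10 cytosines, 22 of 81 in CD11b+ cells (27.2%) and 20 of 96 in CD4+ cells (20.8%) lost more than 20 points, against 12.3% and 10.1% of the segment's regions of that size. Only 1 region of that size was not lower in R878H/+ cells, in each cell type. Of the 7 loci, 4 were called in both cell types and 3 in CD4+ cells alone.

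The 7 loci of Gse1 lie from 2.32 to 266.7 kb after its start, the first in an exon and the others in introns. The first, at 2.32 kb, went from 48.8% to 17.7% in CD4+ cells and from 24.4% to 7.1% in CD11b+ cells, where it was not called. The second, at 40.3 kb, went from 49.9% to 19.3% in CD4+ cells and from 34.6% to 11.5% in CD11b+ cells, also not called there. Both were thus less methylated in WT CD11b+ cells than in WT CD4+ cells. At 123.7 kb the CD4+ region fell from 86.3% to 54.1%, and the CD11b+ region beside it fell from 86.7% to 44.5% but has only 10 cytosines, under the limit for a call.

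The loci called in both cell types were at 142, 221, 258 and 267 kb, rounded. The 142 kb locus was 1 region of 2600 bp in CD4+ cells (67.4% to 34.9%) and was split into 3 regions in CD11b+ cells, of which the middle was called (59.4% to 21.8%). The 221 kb locus had almost the same borders in both cell types and similar levels, 79.2% to 47.4% in CD11b+ cells and 83.9% to 53.3% in CD4+ cells. The 267 kb locus holds the largest loss called in CD11b+ cells, 44.1 points (72.3% to 28.1%). In CD4+ cells it went from 90.1% to 62.5%, a loss of 27.6 points, and the gap of 16.5 points was the largest difference in loss toward CD11b+ cells among pairs that share at least 50% of each other's length and have more than 10 cytosines in both.

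The 258 kb locus, whose shared bases are the first sequence shown, holds the largest loss called in CD4+ cells. There methylation went from 70.6% to 18.9%, a loss of 51.6 points over 37 cytosines in 623 bp. In CD11b+ cells the same place was split into 3 regions. The first went from 71% to 32.3% and was called. The others, nearer to the centre of the CD4+ region, were already low in WT, with 20.9% and 9.39%, and reached 1.04% and 1.14% in R878H/+ cells. The part with low WT methylation in CD11b+ cells thus lies inside a region that was mostly methylated in WT CD4+ cells.

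**Figure D3:**
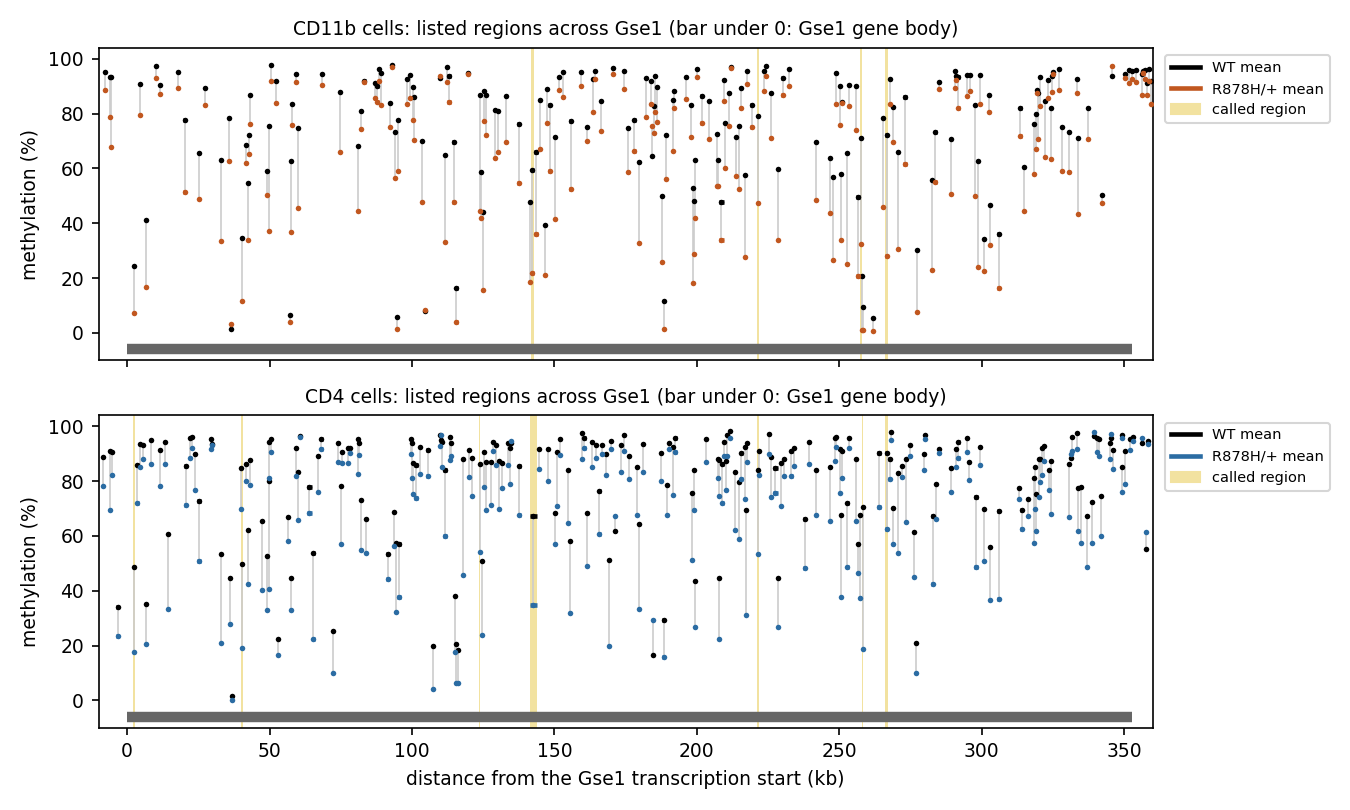
Methylation across Gse1. Each pair of points joined by a line is a listed region, at its distance in kb from the Gse1 start (x axis), with its WT mean in black and its R878H/+ mean in colour, in percent (y axis). Shaded bands are called regions, 4 in CD11b+ cells (upper panel) and 7 in CD4+ cells (lower panel).

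At Zfpm1 and Cbfa2t3 a larger share of the CD11b+ regions had large losses than at Gse1, over fewer regions. Of the Zfpm1 regions with more than 10 cytosines, 7 of 16 in CD11b+ cells (43.8%) and 5 of 18 in CD4+ cells (27.8%) lost more than 20 points. All 16 and all 18 were lower in R878H/+ cells. The intron of Zfpm1 shown above, 27.2 kb after the start, went from 71.4% to 32% in CD11b+ cells and from 96.3% to 65.4% in CD4+ cells, so WT CD4+ cells were almost fully methylated there. An intron 3.67 kb after the start went from 41.1% to 6.56% in CD4+ cells, the lowest R878H/+ level of all called regions of the segment, and from 37.1% to 20.1% in CD11b+ cells, which have 10 cytosines there. A called intergenic locus about 91.1 kb before Zfpm1 went from 62.5% to 27% in CD11b+ cells and from 76.6% to 44.2% in CD4+ cells.

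Cbfa2t3, on the minus strand, had 3 loci. The intron 3.63 kb after its start went from 42.7% to 13.9% in CD11b+ cells and from 60.3% to 25.9% in CD4+ cells. Beside an internal start, 19.1 kb after the first, methylation went from 78.4% to 51.7% in CD11b+ cells, which was called, and from 71% to 45.8% in CD4+ cells, which was not. The intron 34.3 kb after the start went from 47.8% to 21.6% and from 52.2% to 32.1%. Of the regions with more than 10 cytosines, 6 of 17 in CD11b+ cells (35.3%) and 4 of 26 in CD4+ cells (15.4%) lost more than 20 points. An intergenic region 13171 bp before the gene lost 36.3 points in CD11b+ cells (58.1% to 21.8%) and 22.6 points in CD4+ cells (43.2% to 20.5%) and was not called in either cell type.

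Irf8 had no called region in its body and a called region before it. The region lies between genes and is centred at -4373 bp from the start (negative values are upstream) in CD11b+ cells and at -4460 bp in CD4+ cells. It went from 92.2% to 60.2% in CD11b+ cells and from 91.7% to 69.6% in CD4+ cells. The WT level was the highest of all called CD11b+ regions of the segment, and it was almost the same in both cell types. The listed regions next to it lost less. Those at -6.31 and -3.32 kb lost 6.35 points (95.4% to 89.1%) and 6.41 points (91.8% to 85.4%) in CD11b+ cells. In CD4+ cells those at -6.49 and -3.22 kb lost 8 points (94.2% to 86.2%) and 6.56 points (92.1% to 85.5%). Farther upstream the loss was larger again. It was 15.4 points at -7.89 kb in CD11b+ cells (77.6% to 62.2%) and 22.6 points at -8.29 kb in CD4+ cells (77% to 54.5%). The latter was slightly more than the 22.1 points of the called CD4+ region.

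Levels nearer to the Irf8 start varied. At -1.44 kb CD11b+ cells went from 90.8% to 78.6%, and at -1.27 kb CD4+ cells went from 82.8% to 64.1%. Closer still methylation was lower in WT cells. The regions at -0.76 and -0.612 kb went from 30.7% to 15.7% and from 9.35% to 5.6% in CD11b+ cells. In CD4+ cells the region at -0.67 kb went from 37% to 15.4%, and after the start the region at 1.2 kb went from 68.2% to 39%. Inside the gene the largest losses were 36.5 points at 4.89 kb in CD11b+ cells (72.5% to 36%) and 35.4 points at 9.1 kb in CD4+ cells (67.8% to 32.4%), each over 10 cytosines and therefore not eligible for a call. A region about 16 kb after the start, in the far part of the gene, was low in both cell types, with 28.1% to 12.9% at 15.7 kb in CD11b+ cells and 23.1% to 9.81% at 15.6 kb in CD4+ cells.

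A region 56.7 kb after the start was called in CD4+ cells (55.3% to 30.2% over 25 cytosines). The CD11b+ table splits this place into 3 regions with WT levels of 15.5%, 47.5% and 85.7%, which went to 6.71%, 19.6% and 69.6%. In CD11b+ cells several regions after the gene were higher in R878H/+ cells, with 51.7% to 65.3% at 21 kb, 48% to 55.7% at 24.5 kb and 36.5% to 51.8% at 41 kb. The CD4+ regions closest to them were lower in R878H/+ cells, with 77.8% to 69.4% at 21 kb, 70.9% to 67.7% at 24.7 kb and 81.6% to 71.2% at 41.5 kb. The CD4+ region at 41.5 kb does not overlap the CD11b+ gain. It overlaps a CD11b+ region at 41.7 kb that also fell, from 89.6% to 77.9%. Before the gene a CD4+ region at -39.7 kb went from 25% to 34.7%. The nearby CD11b+ region at -40.1 kb went from 56.4% to 34.6% but does not overlap it. The CD4+ region that overlaps this CD11b+ region, at -40.3 kb, fell as well, from 90.1% to 79.5%. These regions were chosen with their values known, and none was called. Within 100 kb of the start the median loss was 9.7 points in both cell types, over 99 CD11b+ and 127 CD4+ regions.

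**Figure D4:**
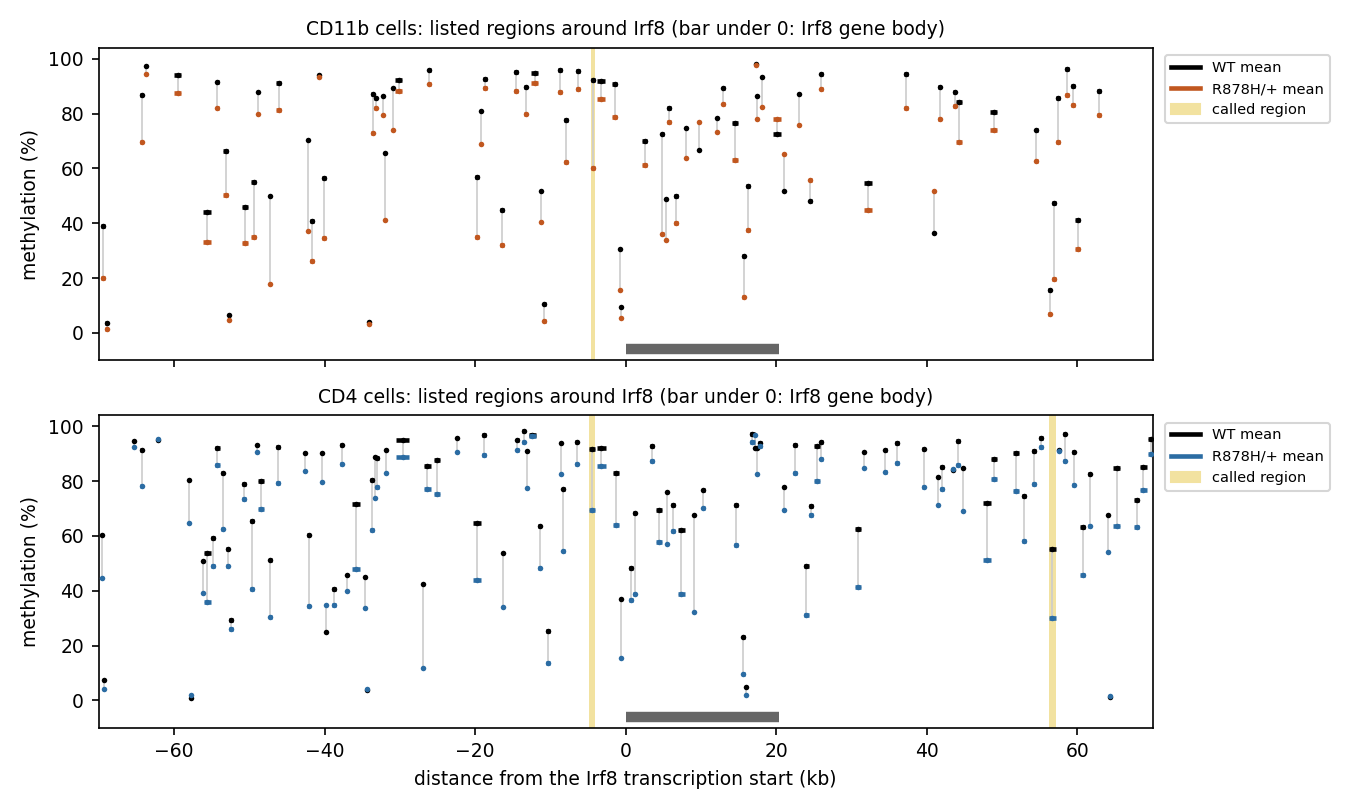
Methylation around Irf8. Bars are listed regions at their distance in kb from the Irf8 start (x axis), black for the WT mean and coloured for the R878H/+ mean in percent (y axis), and the dark bar under 0 is the gene. Shaded bands are called regions, with the shared region before the start in both cell types and the region 56.7 kb after it in CD4+ cells.

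Of the 73 protein-coding genes that overlap the segment, 71 had a listed region in CD11b+ cells and all 73 had one in CD4+ cells. A called region overlapped 6 genes in CD11b+ cells and 10 in CD4+ cells, 11 in either and 5 in both. Counting calls within 5 kb of a gene, the CD4+ number was 17. The 5 genes overlapped in both were Gse1, Zfpm1, Cbfa2t3, Fbxo31 and Galnt2. Another 4 called CD11b+ regions and 9 called CD4+ regions lay in no protein-coding gene.

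Among the genes of the cell cycle and DNA replication, Fbxo31, a substrate receptor of a ubiquitin ligase that acts on cell cycle proteins, was called in both cell types. Its intron went from 52% to 16.5% in CD11b+ cells over a region of 137 bp, and from 62.5% to 33.1% in CD4+ cells over 477 bp. Cdt1, which licenses replication origins, had a called CD4+ region 43 bp from a start (83.7% to 54.4%), where CD11b+ cells went from 77.1% to 60.7%. Aprt, an enzyme of purine salvage, had a called CD4+ region that covers an annotated start inside the gene (72.8% to 35.7%), where CD11b+ cells went from 57.4% to 31.4%. Cdt1 and Aprt are neighbours, and between genes 3014 bp before Cdt1, on its other side, 1 more place had a large difference between the cell types, 42.2% to 34.1% in CD11b+ cells and 68.6% to 34.7% in CD4+ cells.

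Galnt2, which starts the O-linked glycosylation of proteins, had a locus at an internal start. It went from 52.4% to 21% in CD11b+ cells over 38 cytosines, the most of any called CD11b+ region. In CD4+ cells the called part was narrower and higher, 85.8% to 57.2% over 13 cytosines. Another CD4+ region that overlaps the called CD11b+ region was not called and went from 61.6% to 42.3% over 30 cytosines. Piezo1, a mechanically gated ion channel, had an intron that went from 56.9% to 19.2% in CD11b+ cells, where it was called. CD4+ cells went from 64.2% to 20.7% there, a larger loss over 10 cytosines, too few for a call. A second CD4+ region, which overlaps the end of the called one, went from 25.5% to 14.9%. Of the Piezo1 regions with more than 10 cytosines, 3 of 16 (CD11b+) and 7 of 26 (CD4+) lost more than 20 points.

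Several other loci were called in CD4+ cells alone. At Banp and Mvd the CD11b+ values are those of the overlapping region with the larger loss. An intron of Banp, which encodes a nuclear matrix and CpG-binding protein, went from 64.6% to 34% in CD4+ cells and from 55.5% to 27% in CD11b+ cells. A region of Mvd, an enzyme of the mevalonate pathway, went from 67% to 41.1% and from 65.8% to 46.2%. The region 1216 bp from the start of Snai3, a zinc finger gene of the Snail family, went from 73.6% to 39.4% and from 76.5% to 43%, so the losses were 34.2 and 33.5 points. An intron of 6430548M08Rik had the second largest called loss in CD4+ cells (84.7% to 44.1%) and a broader CD11b+ region of 2043 bp (61.8% to 38.9%).

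Other intergenic loci were also called. The locus between Foxl1 and 1700018B08Rik, 169.5 kb from the start of the latter, was called in both cell types. It went from 68.9% to 30.8% in CD11b+ cells and from 63.7% to 29.7% in CD4+ cells. The locus 104.8 kb before Foxf1, with the same left border in both tables, went from 80.9% to 49.4% and from 91% to 63.8%. Between Acsf3 and Cdh15, a cadherin gene, a locus called in CD4+ cells alone went from 63.1% to 34.7%. Its CD11b+ region with the larger loss went from 67.5% to 28.2% over 10 cytosines. The locus 1577 bp before Rpl13, a ribosomal protein gene, went from 81.9% to 50.4% in CD4+ cells and from 65.4% to 28% over 10 cytosines in CD11b+ cells. A locus 19.9 kb before Gse1 was also called in CD4+ cells alone (88.7% to 57.1%), beside a CD11b+ region that went from 82.8% to 53.9%.

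The gene groups were set from gene function, with earlier results of these data known. The blood-cell transcription regulators (Irf8, Cbfa2t3, Zfpm1, Gse1, Snai3 and Banp) held 8 of the 15 CD11b+ calls and 12 of the 27 CD4+ calls, which is 2.63% of their 304 listed CD11b+ regions and 3.29% of their 365 listed CD4+ regions, against 0.822% and 1.16% over the segment and 0.576% and 0.665% over the whole tables. Gse1 alone had 4 of the 8 and 7 of the 12, and since the genes were grouped with these calls known, nothing is read from the difference. Their median losses were 11.5 and 10.2 points, against 7.92 and 8.28 over the segment. Most of these regions are those of Gse1. The genes of replication, repair and the cell cycle had calls in 1 of 7 members in CD11b+ cells and in 3 in CD4+ cells. Over the segment a called region overlapped 6 and 10 of the 73 genes. The calls of this group were 0.893% and 2.56% of its listed regions, against 0.822% and 1.16% over the segment. These shares rest on 1 and 3 calls, so nothing is read from the differences. The median losses of this group were 8.54 and 7.6 points.

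Each of the remaining groups had 0 or 1 call in a cell type, and with the segment's shares of 0.822% and 1.16% nothing is read from such counts. The genes of leukocyte oxidase, transport and signalling had 1 call in CD11b+ cells (Piezo1) and 0 in CD4+ cells, and the metabolic and lysosomal genes had 0 and 1 (Mvd). The neuronal and muscle genes had 0 calls over 82 CD11b+ and 103 CD4+ regions, with median losses of 7.12 and 7.5 points. The forkhead genes Foxf1, Foxc2 and Foxl1, developmental regulators, were little methylated in both genotypes, with median levels of 23.1% in WT and 12.8% in R878H/+ CD11b+ cells over 7 regions of 2 of the genes, and 22.3% and 13.6% in CD4+ cells over 12 regions. None of their regions was called.

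Introns held more calls than their share of listed regions, which is again a description. In CD11b+ cells 9 of the 15 called regions were intronic, 60% (95% exact binomial interval 32.3% to 83.7%), while introns held 34.6% of the listed regions. In CD4+ cells 13 of 27 were, 48.1% (28.7% to 68.1%), against 32.9%. Regions within 1 kb of a transcription start were 2 of 15 and 3 of 27, 13.3% (1.66% to 40.5%) and 11.1% (2.35% to 29.2%), beside shares of the listed regions of 11.5% and 11.1%. With a distance of 2 kb the CD4+ share of called regions was 29.6%. Exons lost the least, with medians of 6.1 and 6.4 points, and introns the most, with 9.1 and 8.97 points.

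The called regions had a median density of 2.66 CpGs per 100 bp (CD11b+) and 2.8 (CD4+), against 1.91 and 1.83 over the uncalled regions with more than 10 cytosines. They had medians of 18 and 21 cytosines, against 13 and 13 over the uncalled regions that also have more than 10, the number a call requires. Against the same regions, GC content was 53.3% and 55.8% against 52.3% and 52.4%. None of the called regions was mostly repeat, while 5.15% and 4.67% of those uncalled regions were. The GATA motif AGATAA, the RUNX motif TGTGGTT and the PU.1 motif GAGGAAGT, searched on both strands, had 1, 1 and 0 matches among the 300-base windows of the 15 called CD11b+ regions and 3, 2 and 1 among those of the 27 called CD4+ regions. The shares among all listed regions of the segment were 11.4%, 7.02% and 2.52% (CD11b+) and 9.91%, 7.46% and 2.4% (CD4+). The Zfpm1 intron shown above holds TGTGGTT.

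The cell types were alike over most of the segment. Listed regions that overlap by at least 1 bp gave 1508 pairs, which cover 68% of the CD11b+ regions and 55.9% of the CD4+ regions. Methylation was lower in R878H/+ cells in both members of 91.9% of the pairs. Across pairs the losses correlated with Pearson's r = 0.578 and Spearman's rho = 0.576, and at a reciprocal overlap of 50% (613 pairs) with r = 0.714 and rho = 0.721. The pairs are not independent samples, they share their CpGs, and a loss is bounded by the WT level, which itself correlated with r = 0.777, so these values are a description. The median WT difference, CD11b+ minus CD4+, was -1.35 points, with 727 pairs within 5 points of each other.

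Larger WT differences were mostly toward lower methylation in CD11b+ cells. WT CD11b+ cells were more than 20 points lower in 152 pairs and WT CD4+ cells in 71, or 48 and 9 at a reciprocal overlap of 50%. Of the pairs with more than 10 cytosines in both and that reciprocal overlap, the 3 largest such differences were in Gse1, with 47.6% in WT CD11b+ cells against 86.3% in WT CD4+ cells at 1 intron, 34.3% against 70% at another, and 35.9% against 69.2% near an internal start. At that start R878H/+ cells had 16.4% and 36.9%, so the loss was 19.5 points in CD11b+ cells and 32.3 points in CD4+ cells. Over the 48 pairs the losses had medians of 18.3 points in CD11b+ cells and 18.2 points in CD4+ cells. Over the 9 pairs the other way the median loss was 5.38 points (CD11b+) and -5.72 points (CD4+), the latter a gain. Each of the 9 includes a region of only 10 cytosines. At an overlap of 1 bp the 71 pairs had median losses of 13.2 points (CD11b+) and 10.6 points (CD4+), and the 152 pairs 16 and 13.2 points. The pairs were chosen on WT levels that also enter the loss, so nothing is read from these medians. After the 3 differences in Gse1 came an intergenic place near Cox4i1, with 45.9% against 78.8%, and an intron of Galns, with 60.1% against 91.7%. The largest difference the other way, under the same limits, lay near an internal start of Cbfa2t3, with 47.4% in WT CD11b+ cells and 28.4% in WT CD4+ cells. As a check of the cell types over the whole tables, WT methylation was lower in CD11b+ cells at 7 of 8 myeloid marker genes and lower in CD4+ cells at 8 of 10 T cell marker genes, and it was also lower in CD11b+ cells at 6 of 6 B cell marker genes and at 3 of the 3 erythroid marker genes listed in both. The part of other spleen cells in the columns' fractions was not tested.

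Gains were few, and the larger ones were in CD11b+ cells. Of the 51 listed CD11b+ regions with a WT level under 10%, 8 gained more than 10 points, and of the 34 such CD4+ regions 0 did. This limit was set after the largest gains had been seen. All 8 began between 0.325% and 3.83%, and 7 of them lie within 1 kb of a transcription start. In exon 1 of Slc7a5, a transporter of large neutral amino acids, 3 neighbouring CD11b+ regions went from 0.347% to 33.8%, from 0.395% to 24% and from 1.58% to 27.5%, over 18, 19 and 13 cytosines. The region nearer to the start went from 0% to 4.33%, and that centred 1065 bp after the start went from 3.25% to 1.7%, so the gain was smaller on the start side and absent on the other. The regions before the start lost methylation, with 24.7% to 8.53% at -931 bp and 37.2% to 17.2% at -1637 bp.

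The other 5 gains lay at the start of Ccsap, which encodes a centriole and spindle protein (0.325% to 23.4% and 0.85% to 27.7%), at Zcchc14 (3.15% to 22.2%), at Spata2l (0.625% to 19.9%) and in an exon of Acta1, the actin of skeletal muscle (3.83% to 25.9%). Their CpG density was 6.67 to 25.6 per 100 bp, well above the segment's median of 1.94. None was called: 4 had only 10 cytosines and the other 4 missed the q-value limit. A CD4+ region is listed at 1 of the 8 places, in Acta1, where it went from 14.3% to 7.62%. The CD4+ table lists no region inside the first 2 kb of Slc7a5, and the 3 listed before the start lost 8.68 to 23.2 points. The CD4+ gains were smaller and the largest were from higher levels. Among CD4+ regions with more than 10 cytosines the largest were 16.7% to 29.4% in a Gse1 intron, 38.9% to 50.8% in a Fbxo31 intron and 66.6% to 76.6% at a Jph3 start. Over all listed CD4+ regions of the segment the lowest loss was -13.6 points, a gain, in Galnt2. A mean over 4 libraries does not show whether all mice or 1 mouse carried a gain.

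**Figure D5:**
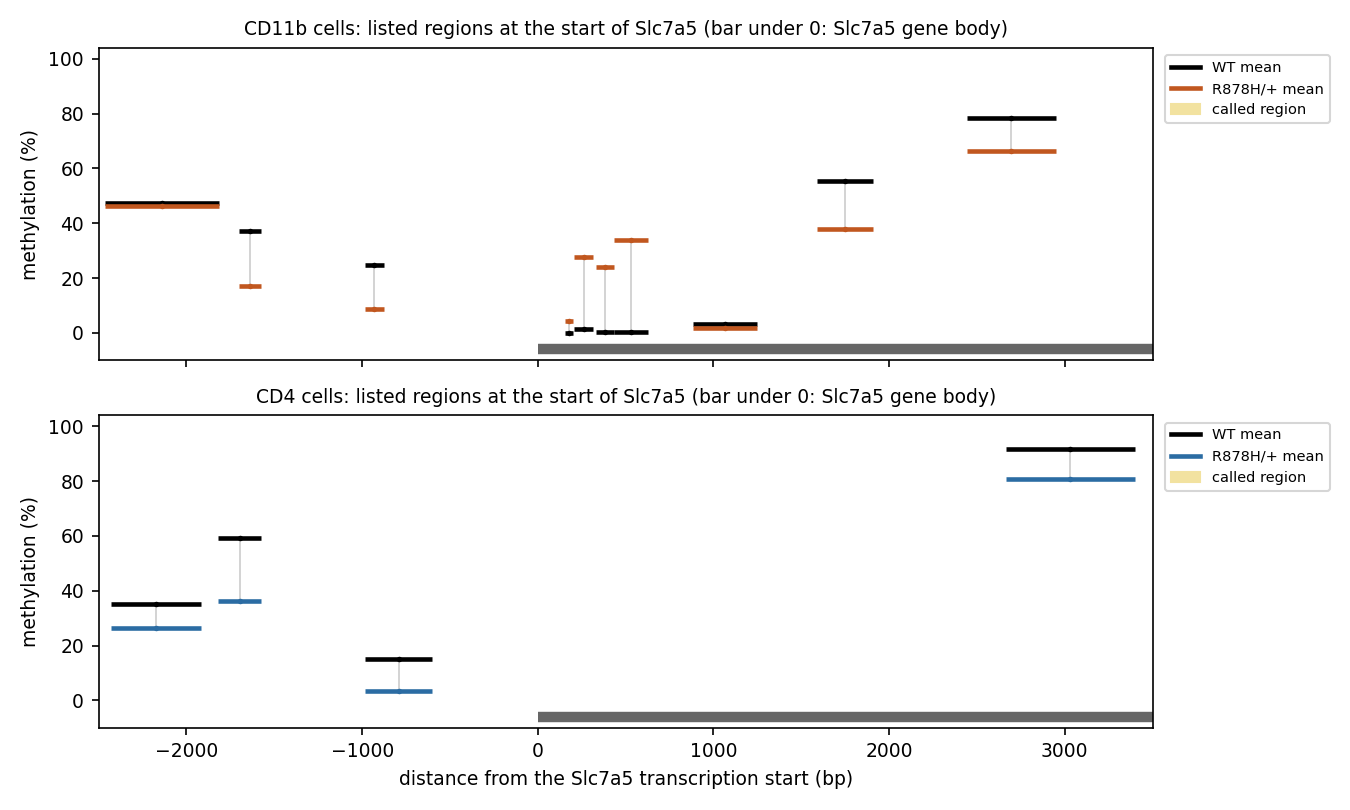
Methylation at the start of Slc7a5. Bars are listed regions at their distance in bp from the transcription start (x axis), black for the WT mean and coloured for the R878H/+ mean in percent (y axis), and the dark bar under 0 is the gene body. In CD11b+ cells (upper panel) 3 regions just after the start rose from under 2% to between 24% and 33.8%, while CD4+ cells (lower panel) have no listed region there, and no region of this window was called.

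The losses did not stop at the borders of the segment. The last CD11b+ region before it went from 92.4% to 84.4% and the first after it from 76.8% to 54.6%. In CD4+ cells these regions went from 60.1% to 37.9% and from 76.7% to 54.9%. The first region inside went from 89.4% to 82.4% in CD11b+ cells and from 74.6% to 53.8% in CD4+ cells. The last region inside, in an exon of Galnt2, went from 74.4% to 83.8% in CD11b+ cells over 10 cytosines, while the last in CD4+ cells went from 90.3% to 79.4%.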

How the data were processed

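Each deposited table holds, per region, its position, a q-value, p-values, a difference, a number of cytosines and the mean methylation of each genotype in percent. The authors aligned the reads to mm10 (BISCUIT) and ran metilene on the methylation ratios. Their versions, settings and coverage minimum are not given in the sources used here, and the submitters' processing notes also name FastQC. The tables have no header, and column meanings were checked on the values. The authors' p-values and q-values served only as call criteria, and the authors' difference column gave no printed value. The study gives a nominal coverage, but depth per sample or region is not in the tables. Positions were converted to count from 1. There were 0 columns of per-sample values, so group means are the authors' means and no test across mice was possible.

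Loss was computed as WT minus R878H/+. Genes, exons and starts came from GENCODE release 21, without Gm20388. Promoters reached 1 kb from a start. Named were Irf8, Gse1, Cbfa2t3, Zfpm1, genes with calls in both cell types, the largest losses and gains, and the largest differences between cell types. Members, lists and rules were chosen with earlier results of these data known. Call counting, overlaps and classes were tested on simulated data, in which 200 of 200 planted regions were recovered. Python 3.11.15, pandas 2.3.3, scipy 1.17.1 and matplotlib 3.10.9 were used. Alternatives changed the call limits, overlap, promoter and gene distance and the regions used.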

Additional observations from a re-analysis of the deposited data

How the results depend on the processing

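Of 31 alternatives over 11 results, 18 stayed within set limits and 13 moved the value. The limits were a set factor of the main value for counts, and the interval of the main value for medians and shares. Only the medians could change direction, and 0 of them did. With no q-value threshold, or with adjusted Mann-Whitney p-values in its place, 5.59% of the segment's listed CD11b+ regions and 4.85% of its CD4+ regions were called in place of 0.822% and 1.16%. With more than 20 cytosines 0.384% (7) and 0.6% (14) were called, and with a loss above 30 points 0.729% (17) of the CD4+ regions were. The median loss over regions listed in both cell types was 9.4 points in CD11b+ cells and 9.79 points in CD4+ cells. At a reciprocal overlap of 50% the shared shares of called regions were 46.7% (CD11b+) and 25.9% (CD4+). With promoters of 2 kb, 29.6% of called CD4+ regions were at promoters, and 17 genes lay within 5 kb of a called CD4+ region. No paired analysis was possible because the tables hold 1 mean per genotype, and leaving out a replicate could not be done for the same reason. The causes were not tested. The tables hold no depth per region, so no limit from depth can be given.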

Other observations

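Over the whole tables, 1467 of the 8415 listed CD11b+ regions with a WT level under 10% (17.4%) gained more than 10 points in R878H/+ cells, against 46 of 7855 in CD4+ cells (0.586%), so the gains at Slc7a5, Ccsap, Zcchc14, Spata2l and Acta1 are 8 of many in CD11b+ cells. This comparison was made after the gains of the segment were seen, it has no error between mice, and R878H/+ CD11b+ cells are also the group with 6 entries for 4 replicate numbers.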
